A study of Mus musculus with 6 samples.

Results

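The mitochondrially encoded genes were all genes whose symbol begins with mt-, after the 53379 gene identifiers of the count tables were matched without their version to mouse GENCODE M21 on GRCm38. There were 37 of them, made up of 13 protein-coding genes, 2 rRNA genes and 22 tRNA genes, and all 37 carried the same version in the tables and in the annotation. They were measured by Smart-seq2 RNA-seq in follicular helper T (Tfh) cells, the CD4+ cells that help B cells in the germinal center. The study asked how Tfh cells change when dendritic cells lack BLIMP-1, the protein of *Prdm1*. Cells were sorted as FVD- TCRβ+ CD4+ CXCR5+ PD1+ from the spleens of female mice, 1 library per mouse, with 3 libraries in each group.

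*Prdm1*-CKO mice were *Prdm1* fl/fl with a CD11c-CRE transgene, so that the deletion is directed at CD11c-high dendritic cells and not at T cells. Control (CTL) mice were either *Prdm1* fl/fl without the transgene or *Prdm1*+/+ with it, and it is not stated which of these each CTL mouse was. The deleted group is titled Blimp1 KO in the labels, whose genotype entry reads Blimp1 KD. Mice of both groups were age-matched, 6 to 8 weeks old, and immunized with NP-CGG in CFA, and the cells were taken on day 7. For this reason *Prdm1* RNA in Tfh cells is no check of the labels, and it lay between 26.0 and 29.8 CPM (counts scaled to a common library size) in CTL and between 30.3 and 31.6 CPM in *Prdm1*-CKO mice.

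Mouse mitochondria hold a small circular genome that is read from both strands into long precursor RNAs. Most genes lie on the heavy strand, while *mt-Nd6* and a group of tRNA genes lie on the light strand. The tRNAs stand between the other genes, and cutting them out of the precursor releases the rRNAs and mRNAs. The proteins are core subunits of respiratory complexes I, III and IV and of the ATP synthase, complex V, and nuclear genes encode the other subunits and the machinery that copies, reads and translates the mitochondrial genome. Smart-seq2 primes on poly(A) tails and its usual form does not mark the strand of an RNA.

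Total counts were between 7147601 and 16973392 per library, so that 3 counts, taken as the smallest level a library can show, correspond to between 0.177 and 0.420 CPM for counting error only. All 14 Tfh marker genes, *Cxcr5*, *Pdcd1* and *Bcl6* among them, had counts in every mouse. CTL 2 stood apart, with counts on 16650 genes where the other mice had 18480 to 21501, and its correlation with the other libraries over genes averaged 0.875, where theirs averaged 0.923 to 0.944. The summed level of 7 plasma cell markers was 504 to 789 CPM in CTL and 809 to 961 CPM in *Prdm1*-CKO mice, and *Sdc1* was at 0 in CTL 2. The 12 B cell markers summed to 109 to 201 CPM and 171 to 275 CPM, with *Pax5*, *Fcer2a*, *Spib* and *Ebf1* at 0 in CTL 2 and *Vpreb3* at 0 in CTL 3, and the 12 macrophage markers summed to 566 to 1748 CPM and 1237 to 1651 CPM, with *Marco* at 0 in CTL 2. The 7 erythroid markers in the tables summed to 6.96 to 16.6 CPM and 12.2 to 49.5 CPM. The 9 CD8 and NK cell markers ran the other way, at 264 to 327 CPM in CTL and 231 to 256 CPM in *Prdm1*-CKO mice, and 7 basophil and mast cell markers were at 32.2 to 121 CPM and 55.4 to 70.7 CPM. Markers were counted at an unadjusted p under 0.05 in edgeR, below which 2.35% of all genes tested lay. Higher in *Prdm1*-CKO mice were 3 of 4 tested erythroid, 2 of 11 macrophage, 1 of 7 plasma and 0 of 12 B cell markers. Lower were 2 of 9 CD8 and NK cell, 2 of 7 basophil and mast cell and 1 of 14 Tfh markers. In these lists 0 had an adjusted p under 0.05. The median log2 fold change was 1.52 for the tested erythroid, 0.83 for the B cell, 0.46 for the macrophage and 0.22 for the plasma cell markers. It was -0.03 for the Tfh, -0.27 for the basophil and mast cell and -0.33 for the CD8 and NK cell markers, against 0.01 for all genes tested. All *Prdm1*-CKO mice were above all CTL mice in 4 of 12 B cell, 3 of 7 plasma cell and 2 of 11 macrophage markers. The same held for 1 of 9 CD8 and NK cell markers. The reverse held for 3 of 9 CD8 and NK cell, 1 of 7 basophil and mast cell and 1 of 14 Tfh markers. All genes tested gave 4.56% and 3.86%. The part of other cell types in the mitochondrial values was not tested.

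A stretch of the mitochondrial genome is also present, nearly unchanged, on chromosome 1. In the annotation, 7 unprocessed pseudogenes lie on the minus strand of chr1:24611535-24616197 in the same order as the mitochondrial bases 6381 to 11042, a span of 4662 bases. Summed over the pseudogene transcripts, 4149 bases were compared and 7 differed. Of these, 6 were in *Gm29216*, the copy of the end of *mt-Co1*, and 1 in *Gm28438*, the copy of *mt-Nd3*. The other 5 copies, *Gm28661* (of *mt-Co2*), *Gm10925* (of *mt-Atp6*), *Gm28437* (of *mt-Co3*), *Gm10222* (of *mt-Nd4l*) and *Gm28439* (of the first part of *mt-Nd4*), were identical to the mitochondrial gene. *Gm10222* and *Gm28439* overlap slightly, and the bases they share were compared in each. Both are shifted by 1 base against the remaining copies, so the stretches also differ in length between *Gm28438* and *Gm10222*. The first 40 bases of the copies that differ are shown beside the mitochondrial sequence, because these are the annotated bases by which a read can be told to come from one or the other, and capitals mark the differing bases.
mt-Co1, chrM:6381-6420, plus strand: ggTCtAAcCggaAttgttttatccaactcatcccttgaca
Gm29216, chr1:24616158-24616197, minus strand: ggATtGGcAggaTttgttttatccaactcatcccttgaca
mt-Nd3, chrM:9459-9498, plus strand: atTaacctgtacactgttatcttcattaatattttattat
Gm28438, chr1:24613080-24613119, minus strand: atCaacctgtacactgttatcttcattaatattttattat
In mitochondrial coordinates, with the mitochondrial base first, the differences were T6383A, C6384T, A6386G, A6387G, C6389A, A6393T and T9461C. The sequences are those of the GENCODE M21 transcripts on GRCm38.

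The reads were 25 bases long, so every run of 25 bases in a mitochondrial gene was looked up in all other annotated transcripts. Such a run (a word) was found elsewhere for 100% of the words of *mt-Co2*, 99.9% of *mt-Co3*, 99.5% of *mt-Atp6*, 98.9% of *mt-Nd4l* and 98.1% of *mt-Nd3*. The genes next to them shared part of their length, with 69.7% of the words of *mt-Co1* and 62.9% of *mt-Nd4*. Not all of this sharing was with chromosome 1. *mt-Co1* shared 817 words with *Gm13340* on chromosome 2 and 455 with *Gm29216*. *Gm13341* and *Gm13339*, also on chromosome 2, shared words with *mt-Co2* and *mt-Nd2*. Shares ran from 21.3% for *mt-Nd5* over 18.2% for *mt-Nd2* and 14.9% for *mt-Nd6* to 11.7% for *mt-Atp8*, with *mt-Cytb* between the last 2. The rRNA genes had few or no shared words, 3.92% for *mt-Rnr2* and 0% for *mt-Rnr1*, and *mt-Nd1* also had 0%. Of the tRNA genes, 19 of 22 had no shared word, and *mt-Ty*, *mt-Tl1* and *mt-Tt* had 23.3%, 3.92% and 2.33%. How the authors handled reads that align to several places is not given in the sources used here. The reads came in pairs, so a shared word does not by itself make a pair ambiguous. Counts per unshared word, given below, divide all counts of a gene by its unshared words. They assume that no read on a shared word was counted, which was not tested.

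The 2 rRNA genes carried most of the mitochondrial counts. *mt-Rnr2*, the RNA of the large mitochondrial ribosome subunit, had 222543, 303240 and 187289 counts in CTL 1 to 3 and 215676, 215823 and 380021 in *Prdm1*-CKO 1 to 3. *mt-Rnr1*, the RNA of the small subunit, had 19391, 29999 and 21273 counts in CTL mice and 17132, 32811 and 27396 in *Prdm1*-CKO mice. Together they took 62.1%, 66.3% and 66.2% of the mitochondrial counts in CTL mice and 65.0%, 69.6% and 67.0% in *Prdm1*-CKO mice, and the ranges overlapped. Levels between genes are compared per kilobase of gene in CPM. On that scale the mean over the 6 mice was 14478 for *mt-Rnr2* and 2450 for *mt-Rnr1*, and the lowest mouse for *mt-Rnr2*, at 8032, lay above the highest mouse for every other mitochondrial gene. Per 25-base word found in no other transcript the order was less clear, since *mt-Rnr2* had 125 to 254 counts and *mt-Co1* 98.6 to 180, and *mt-Rnr2* was the higher in 5 of 6 mice, the exception being CTL 1.

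Among the protein-coding genes, *mt-Co1*, the catalytic subunit of complex IV, was the highest per kilobase, with a mean of 3599 CPM per kilobase (lowest mouse 1979, highest mouse 5301). *mt-Cytb*, the mitochondrially encoded subunit of complex III, followed with 2564 (1550 to 3999) and *mt-Nd1*, a complex I subunit, with 2305 (1497 to 3468). Their ranges over mice overlapped, while within a mouse *mt-Co1* was above *mt-Cytb* and *mt-Nd1* in 6 of 6 mice, *mt-Cytb* above *mt-Nd1* in 5, and *mt-Rnr1* above *mt-Nd1* in 3. The other complex I subunits outside the copied stretch or partly in it were lower, with means of 604 for *mt-Nd5*, 484 for *mt-Nd4*, 208 for *mt-Nd2* and 184 for *mt-Nd6*, the last being the one light-strand mRNA. *mt-Nd5* (288 to 1063) was above *mt-Nd4* (277 to 794) in 5 of 6 mice per kilobase, while per unshared word it was below *mt-Nd4* in all 6 mice (5.27 to 13.3 against 10.7 to 21.3 counts), and *mt-Nd2* (122 to 329) was above *mt-Nd6* (100.3 to 282) in 6 of 6 per kilobase.

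The 6 protein-coding genes that lie wholly inside the copied stretch had few counts. *mt-Co2*, a complex IV subunit, had 1, 3 and 0 counts in CTL mice and 0 in each *Prdm1*-CKO mouse. *mt-Co3*, also of complex IV, had 9, 8 and 7 counts in CTL mice and 5, 4 and 7 in *Prdm1*-CKO mice. *mt-Atp6*, a subunit of the ATP synthase, had 2 counts in CTL 3 and 2 in *Prdm1*-CKO 3 and 0 in the other mice, and *mt-Atp8*, of the same complex, had 0 in all mice. *mt-Co2*, *mt-Atp6* and *mt-Atp8* did not exceed the floor of 3 counts in any mouse. *mt-Nd4l*, a complex I subunit, had 2, 15 and 2 counts in CTL mice and 6, 5 and 15 in *Prdm1*-CKO mice. *mt-Nd3*, also of complex I, had more than the others, with 141, 160 and 97 counts in CTL mice and 165, 138 and 259 in *Prdm1*-CKO mice. The highest count of any of these 6 genes in any mouse, 259, lay below the lowest count of any of the 7 other protein-coding genes, 660. Divided by the number of words found in no other transcript, the counts of the copied genes differed widely, with 16.2 to 43.2 counts per unshared word for *mt-Nd3*, 4 to 9 for *mt-Co3*, 0.667 to 5 for *mt-Nd4l* and 0 to 0.667 for *mt-Atp6*. *mt-Nd1*, which shares no word, had 17.9 to 42.2. *mt-Nd3* alone came near that range, and these genes have between 1 and 6 unshared words. For *mt-Atp8*, 159 of its 180 words were found in no other transcript. Most of its place in the nuclear stretch lies in a gap without annotation of 233 bases between *Gm28661* and *Gm10925*. The sequence of that gap was not analysed here. The last 43 bases of *mt-Atp8*, which overlap *mt-Atp6*, have their copy in *Gm10925*.

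The pseudogenes of the stretch had counts of their own. *Gm28437*, identical to *mt-Co3*, had 291, 250 and 112 counts in CTL mice and 327, 266 and 394 in *Prdm1*-CKO mice. *Gm28661*, identical to *mt-Co2*, had 98, 155 and 67 counts in CTL mice and 129, 148 and 180 in *Prdm1*-CKO mice. In both pairs the pseudogene was higher than the mitochondrial gene in all 6 mice, and so was *Gm10925*, at 68 to 139 counts, above *mt-Atp6*. *Gm10222*, at 3 to 19 counts, was above *mt-Nd4l* in 5 of 6 mice and below it in *Prdm1*-CKO 3. The other copies had fewer counts than their mitochondrial gene, with 6 to 27 for *Gm28438* against *mt-Nd3*, 109 to 262 for *Gm29216* against *mt-Co1* and 2 to 19 for *Gm28439* against *mt-Nd4*. Reads of identical sequence cannot be told apart. The 7 pseudogenes together had between 379 and 1035 counts per library, which does not reach the count of *mt-Nd2* in any mouse, the lowest being 1535. Counts of the 6 copied genes are therefore uncertain in these tables, which includes the values of *mt-Nd3*, the one of them that could be tested. The same holds in part for *mt-Co1* and *mt-Nd4*, most of whose words are shared, and for the ratios, sums and fold changes that use them.

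**Figure D1:**
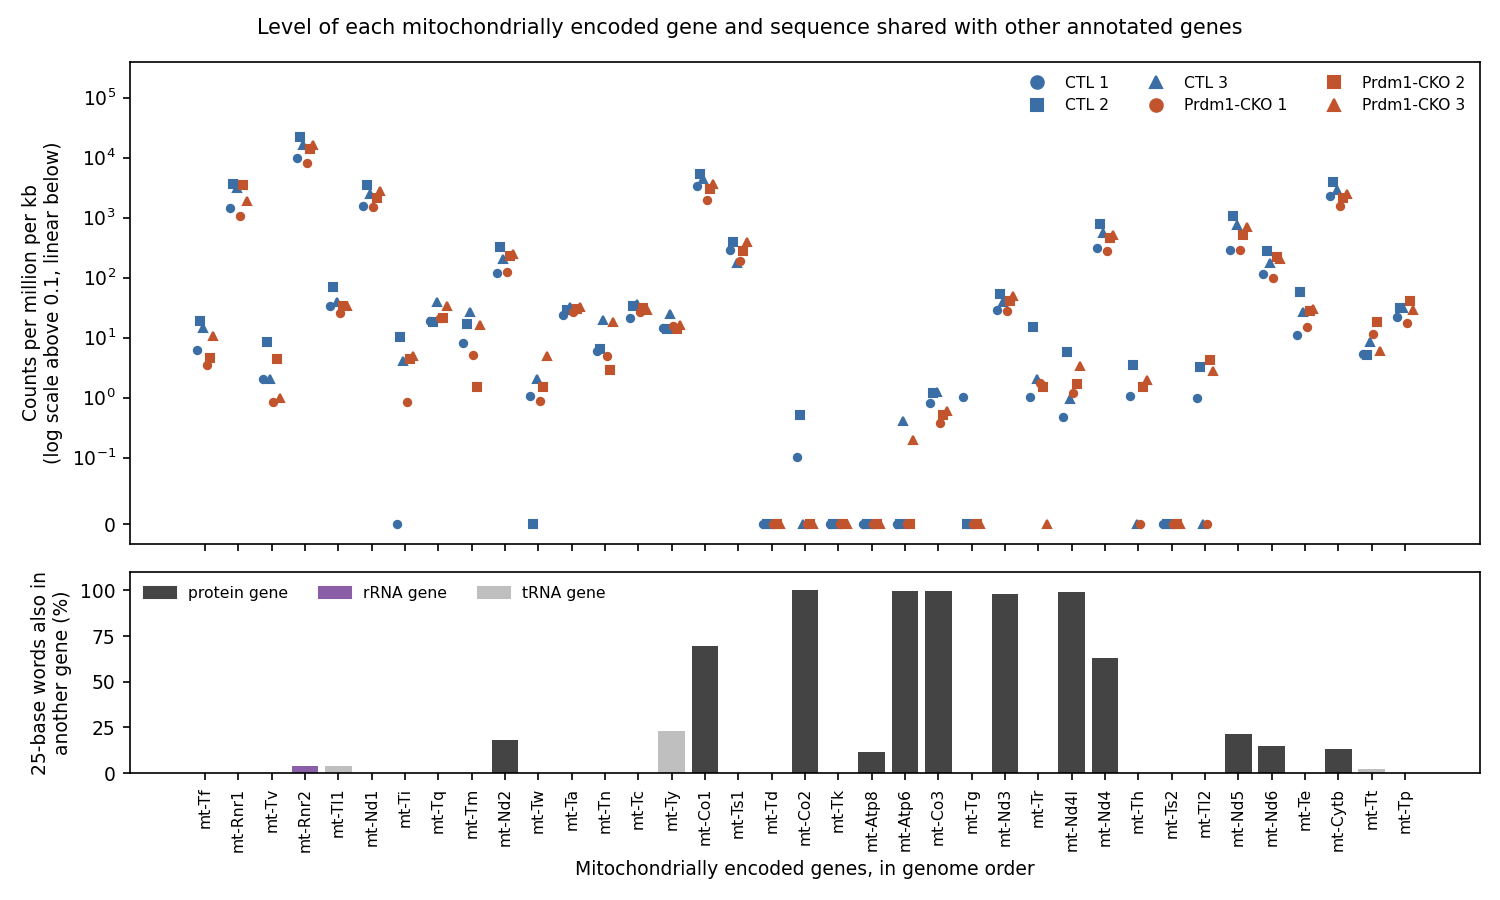
The upper plot gives the level of each of the 37 mitochondrially encoded genes in genome order as CPM per kilobase (log scale above 0.1), with 1 symbol per mouse, CTL in blue and Prdm1-CKO in orange, and the lower plot gives the percentage of the 25-base words of each gene that also occur in another annotated gene. The genes with bars near 100% sit at or below 53.3 CPM per kilobase in every mouse, and mt-Rnr2 is the highest in every mouse on this scale, though not per unshared word in CTL 1.

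The tRNA genes took between 0.00256% and 0.00509% of a library, 239 to 682 counts in all. *mt-Ts1*, a serine tRNA gene on the light strand at chrM:6870-6938, held more of these counts than any other tRNA gene. It had 280, 234 and 86 counts in CTL mice and 225, 188 and 403 in *Prdm1*-CKO mice, which was between 36.0% and 61.4% of the tRNA counts. Its end overlaps the end of *mt-Co1* on the opposite strand by 3 bases, and its count was between 0.179% and 0.486% of that of *mt-Co1*. Whether counting used strand is not given in the sources used here, and without strand reads from *mt-Ts1* and reads from RNA of the opposite strand cannot be told apart. The sequence of *mt-Ts1* is given with those of *mt-Td*, *mt-Tk* and *mt-Ts2*, the tRNA genes with 0 counts in all 6 mice, each in the sense of the tRNA.
mt-Ts1: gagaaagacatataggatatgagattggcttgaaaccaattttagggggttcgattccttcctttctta
mt-Td: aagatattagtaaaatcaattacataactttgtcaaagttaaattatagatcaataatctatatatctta
mt-Tk: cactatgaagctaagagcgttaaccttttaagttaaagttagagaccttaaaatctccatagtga
mt-Ts2: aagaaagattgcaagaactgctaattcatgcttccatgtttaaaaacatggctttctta
*mt-Td* and *mt-Tk* lie inside the copied stretch, as do *mt-Ts1*, *mt-Tg* and *mt-Tr*, while *mt-Ts2* lies outside it, at chrM:11613-11671. None of these sequences shares a 25-base word with another annotated transcript, but nuclear sequence without annotation, such as the gaps between the pseudogenes where copies of *mt-Td* and *mt-Tk* would lie, was not analysed here.

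The tRNA counts were higher on the genes of the light strand than on those of the heavy strand. Without strand, reads from these tRNAs cannot be told apart from reads of opposite-strand RNA that crosses their genes. The counts therefore do not show which strand was read. The 8 light-strand genes held 86.4%, 78.8% and 79.1% of the tRNA counts in CTL mice and 86.0%, 85.0% and 87.2% in *Prdm1*-CKO mice. Without *mt-Ts1* they held between 54.6% and 71.0%. The median light-strand tRNA gene had between 15.5 and 30.0 counts in a mouse and the median of the 14 heavy-strand genes had between 1 and 2.5, so the order was the same in all 6 mice. The genes lie in clusters and share precursors, so they are not independent. *mt-Tl1*, a leucine tRNA gene between *mt-Rnr2* and *mt-Nd1*, was the highest on the heavy strand, with 36, 45 and 21 counts in CTL mice and 33, 25 and 37 in *Prdm1*-CKO mice. Among the others, *mt-Ta*, *mt-Tc*, *mt-Tp*, *mt-Tq*, *mt-Te* and *mt-Ty* of the light strand had 8 to 35 counts. *mt-Tn*, also of the light strand, had 2 to 19. Of the heavy strand, *mt-Tm*, *mt-Tf* and *mt-Tt* had 1 to 17, and *mt-Ti*, *mt-Tv*, *mt-Tr*, *mt-Tw*, *mt-Tl2*, *mt-Th* and *mt-Tg* had 0 to 9. At these counts a small difference between mice may be hidden by counting error, and what could be detected was not tested. Mature tRNAs carry no poly(A) tail, and how far these counts come from tRNAs or from uncut precursors was not tested.

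The share of all mitochondrially encoded genes in a library did not separate the groups. It was 2.75%, 5.83% and 4.41% in CTL mice and 2.11%, 3.66% and 4.09% in *Prdm1*-CKO mice. CTL 2 was the highest and *Prdm1*-CKO 1 the lowest, and the ranges overlapped. The means were 4.33% ± 1.54 (SD, n = 3) and 3.29% ± 1.04 (SD, n = 3), a difference of -1.04 percentage points with p = 0.4 in an exact two-sided permutation test of 3 mice against 3. Such a test cannot go below 0.1. After Benjamini-Hochberg adjustment over the 8 shares and ratios tested in this way, p was 0.533. Without CTL 2 the difference was -0.290 points. The gene with the most counts, *CT010467.1*, annotated as an rRNA, took 5.70%, 9.84% and 14.7% of the libraries of CTL mice and 5.14%, 10.2% and 9.66% of those of *Prdm1*-CKO mice. It was lowest in CTL 1 and *Prdm1*-CKO 1, as was the mitochondrial share, and its part in that share was not tested beyond its removal from the total, which gave a difference of -1.24 points. In sorted cells in bulk, fewer cells rich in mitochondrial RNA and less mitochondrial RNA per cell cannot be told apart.

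Each class gave the same picture. The protein-coding share was 1.04%, 1.96% and 1.49% in CTL mice and 0.737%, 1.11% and 1.34% in *Prdm1*-CKO mice (exact permutation p = 0.3). The rRNA share was 1.71%, 3.86% and 2.92% in CTL mice and 1.37%, 2.55% and 2.74% in *Prdm1*-CKO mice (exact permutation p = 0.4). The tRNA share was 0.00322%, 0.00509% and 0.00334% in CTL mice and 0.00256%, 0.00362% and 0.00458% in *Prdm1*-CKO mice (exact permutation p = 0.7). In each class the groups overlapped. CTL 2 was the highest and *Prdm1*-CKO 1 the lowest in all 3 classes. Without CTL 2 the differences were -0.197 points for the protein-coding genes, -0.0930 for the rRNA genes and 0.000308 for the tRNA genes, so that the last changed its sign.

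**Figure D2:**
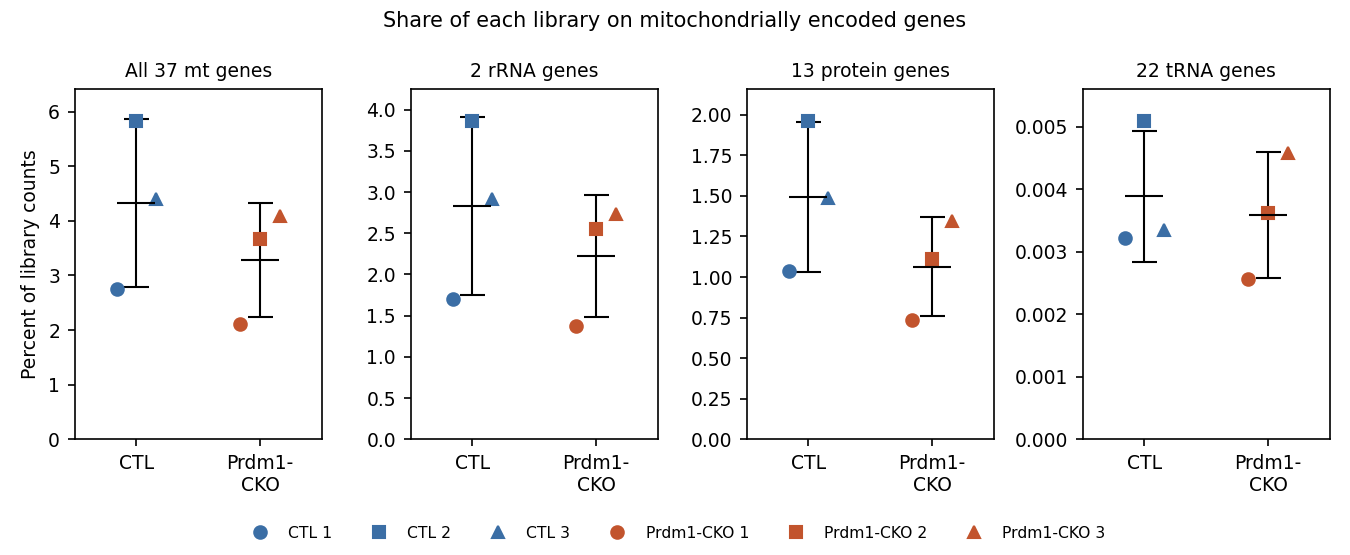
The percentage of all counts of a library that lay on the 37 mitochondrially encoded genes and on the rRNA, protein-coding and tRNA genes among them, with 1 point per mouse and the group mean ± SD (n = 3) in black. The groups overlap in every plot, and CTL 2 is the highest point in each.

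For single genes, counts were scaled by edgeR's TMM method and tested with its quasi-likelihood test over the 14555 genes that passed its filter on low counts, 19 mitochondrially encoded genes among them. None of the 19 passed at an adjusted p under 0.05 (Benjamini-Hochberg over all genes tested), as was the case for 0% of all genes tested. At an unadjusted p under 0.05 there were 2, *mt-Co1* and *mt-Cytb*, where 2.35% of all genes tested were below it. DESeq2's Wald test, which gave values for 33 mitochondrially encoded genes, also called 0, with 2 at an unadjusted p under 0.05 and no adjusted p for 9 of the 33. Of all genes it tested, it called 0.0346%, and 2.62% were at an unadjusted p under 0.05. The log2 fold change of *Prdm1*-CKO over CTL was below 0 in 17 of the 19 genes and in 48.9% of all genes tested, and its median was -0.26 against 0.01. Without CTL 2 it was below 0 in 13 of 22 tested genes, without *Prdm1*-CKO 1 in 13 of 20 and without CTL 1 in 20 of 20, where between 48.8% and 51.4% of all genes tested were. These genes share precursors and move together in a library, so their number is not a number of independent results. In none of the 19 tested genes did the groups lie apart. In 4.56% of all genes tested the 3 *Prdm1*-CKO mice were all above the CTL mice and in 3.86% all below. *mt-Co3*, which was not tested and had at most 9 counts in a mouse, did lie apart. Without TMM scaling it was at 0.635 to 0.979 CPM in CTL and 0.295 to 0.470 CPM in *Prdm1*-CKO mice. Its count is among those made uncertain by the copied stretch. *Gm28437*, its copy on chromosome 1, had more counts and overlapped between the groups, with a log2 fold change of 0.13 (standard error 0.30).

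*mt-Co1* was at 4994, 8346 and 7105 CPM in CTL mice and 2918, 4610 and 5660 CPM in *Prdm1*-CKO mice. The lowest CTL mouse lay between the upper *Prdm1*-CKO mice, and the log2 fold change was -0.63 (standard error 0.26, edgeR unadjusted p = 0.0408, adjusted p = 0.996). *mt-Cytb* was at 2511, 4662 and 3499 CPM in CTL mice and 1692, 2444 and 2923 CPM in *Prdm1*-CKO mice. It had a log2 fold change of -0.60 (standard error 0.26, edgeR unadjusted p = 0.0494, adjusted p = 0.996). Neither was below an unadjusted p of 0.05 without CTL 2, where the log2 fold changes were -0.48 and -0.37, nor without CTL 3, *Prdm1*-CKO 1 or *Prdm1*-CKO 2.

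With all mice the complex I genes lay closer to 0 than *mt-Co1* and *mt-Cytb*, and the difference was not tested. Without CTL 1 the order changed for *mt-Nd5*, with -0.93 against -0.83 for *mt-Co1* and -0.81 for *mt-Cytb*. *mt-Nd5* was at 510, 1976 and 1470 CPM in CTL mice and 511, 940 and 1285 CPM in *Prdm1*-CKO mice, with a log2 fold change of -0.53 (standard error 0.48). *mt-Nd4* was at 413, 1115 and 793 CPM and 365, 620 and 731 CPM, with -0.44 (standard error 0.37). *mt-Nd1* was at 1428, 3382 and 2464 CPM and 1367, 2008 and 2687 CPM, with -0.26 (standard error 0.33). CTL 2 was the highest mouse in each of the 10 tested rRNA and protein-coding genes. *mt-Nd2* was at 123, 348 and 227 CPM and 122, 232 and 258 CPM, with -0.19 (standard error 0.39). *mt-Nd6*, of the light strand, was at 57.5, 149 and 97.4 CPM and 49.7, 114 and 108 CPM, with -0.16 (standard error 0.40). *mt-Nd3*, of the copied stretch, was at 9.64, 18.9 and 14.3 CPM and 9.28, 14.0 and 17.7 CPM, with -0.06 (standard error 0.37). *Prdm1*-CKO 1 was the lowest mouse in 9 of the 10 genes, the exception being *mt-Nd5*, which was lowest in CTL 1.

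The rRNA genes were at 15209, 35835 and 27645 CPM in CTL mice and 12124, 21891 and 25963 CPM in *Prdm1*-CKO mice for *mt-Rnr2*, with a log2 fold change of -0.39 (standard error 0.34). *mt-Rnr1* was at 1325, 3545 and 3140 CPM and 963, 3328 and 1872 CPM, with -0.38 (standard error 0.47). Both overlapped between the groups. The 9 tested tRNA genes had log2 fold changes from -1.12 for *mt-Tm* (standard error 0.96) to 0.04 for *mt-Ta* (standard error 0.54), and *mt-Ts1* was at -0.01 (standard error 0.38). Between them lay *mt-Tl1* at -0.65, *mt-Te* at -0.42, *mt-Ty* at -0.26, *mt-Tc* at -0.11, *mt-Tq* at -0.03 and *mt-Tp* at 0.02. Adjusted p values of all 19 genes were between 0.996 and 0.998 in edgeR. The other 18 genes, 5 protein-coding and 13 tRNA genes with at most 19 counts in a mouse, did not pass the filter and were not tested. The 7 pseudogenes of the copied stretch passed it, with adjusted p values of 0.996 and 0.998, and so did *Gm13340* and *Cep295*, which share words with *mt-Co1* and *mt-Ty*, at 0.996 each.

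**Figure D3:**
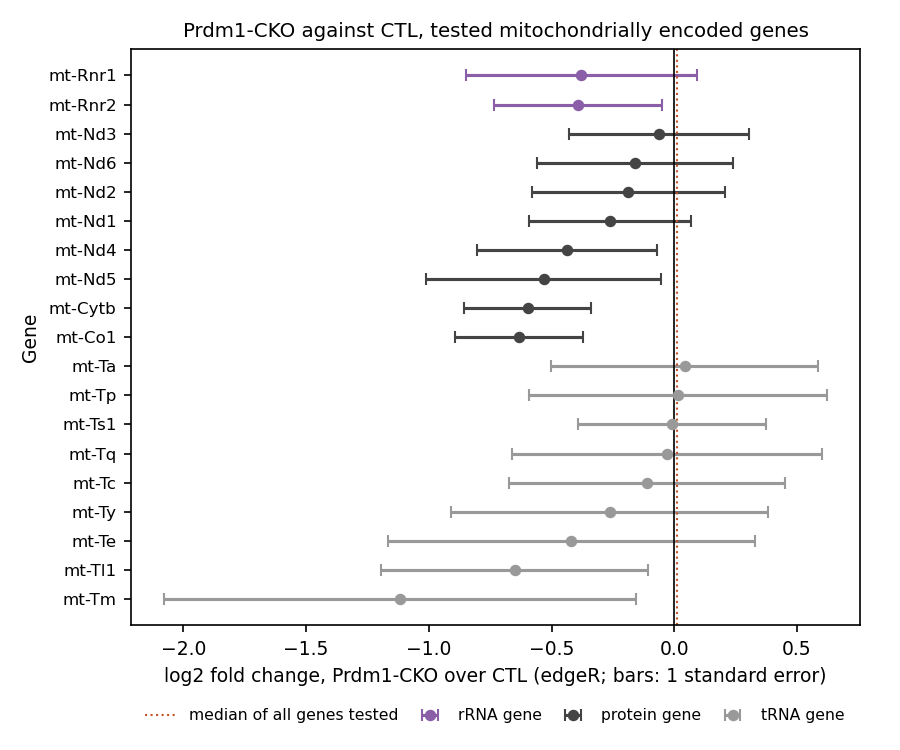
The log2 fold change of Prdm1-CKO over CTL for the 19 tested mitochondrially encoded genes, with bars of 1 standard error from edgeR (3 mice per group), grouped as rRNA, protein-coding and tRNA genes. All 10 rRNA and protein-coding genes lie below 0, from -0.63 to -0.06, and the dotted line marks the median of all genes tested at 0.01.

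Ratios between mitochondrial transcripts within a library do not depend on how libraries are scaled. The rRNA to protein-coding ratio was 0.72, 0.98 and 0.97 on the log2 scale in CTL mice and 0.90, 1.20 and 1.03 in *Prdm1*-CKO mice (exact permutation p = 0.4). The log2 ratio of *mt-Rnr2* to *mt-Rnr1* was 3.52, 3.34 and 3.14 in CTL mice and 3.65, 2.72 and 3.79 in *Prdm1*-CKO mice (exact permutation p = 0.9). Both overlapped between the groups. The log2 ratio of complex I to complex IV transcripts was -0.97, -0.26 and -0.49 in CTL mice and -0.27, -0.23 and -0.15 in *Prdm1*-CKO mice, with a difference of 0.36 (exact permutation p = 0.2). CTL 1 was the lowest by a wide margin, and without it the difference was 0.15.

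Of the 8 shares and ratios, the light-strand share was the one in which the groups did not overlap. The light-strand genes took 0.317%, 0.319% and 0.270% of the mitochondrial counts in CTL mice and 0.351%, 0.398% and 0.359% in *Prdm1*-CKO mice, and *mt-Nd6* supplied 68.1% to 78.9% of these counts. *mt-Nd6* alone took 0.216%, 0.251% and 0.210% in CTL mice and 0.247%, 0.314% and 0.261% in *Prdm1*-CKO mice, and there the groups overlapped. Without strand, RNA of the heavy strand that crosses these genes cannot be told apart from their own. The means were 0.302% ± 0.0282 (SD, n = 3) and 0.369% ± 0.0250 (SD, n = 3). The exact permutation p was 0.1, the smallest that 3 mice against 3 can give, and the adjusted p over the 8 tests was 0.533, so the difference did not pass the correction. All 3 *Prdm1*-CKO mice were above the CTL mice, and leaving out each mouse in turn gave differences of 0.0508 to 0.0762 percentage points.

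Among the 45 ratios between the 10 tested rRNA and protein-coding genes, the groups did not overlap in 8, or 17.8% of these pairs, where 8.67% of the pairs of all tested genes with counts in every mouse did not overlap. They were looked for after the values were seen, share genes, and were given no test. *mt-Nd1* relative to *mt-Co1* was 0.286, 0.405 and 0.347 in CTL mice and 0.469, 0.436 and 0.475 in *Prdm1*-CKO mice. *mt-Nd1* relative to *mt-Cytb* was 0.569, 0.726 and 0.704 in CTL mice and 0.808, 0.822 and 0.919 in *Prdm1*-CKO mice. In both, *mt-Nd1* was higher in *Prdm1*-CKO mice relative to the partner gene, whereas the ratios of *mt-Nd4*, *mt-Nd5* and *mt-Nd6* to these partners overlapped. *mt-Nd2* relative to *mt-Co1* was 0.0246, 0.0416 and 0.0319 in CTL mice and 0.0420, 0.0503 and 0.0455 in *Prdm1*-CKO mice, and the nearest mice of the groups, CTL 2 and *Prdm1*-CKO 1, lay close together. The remaining 5 were *mt-Nd2* to *mt-Nd4* and *mt-Nd3* to *mt-Cytb*, higher in *Prdm1*-CKO mice, and *mt-Rnr2* to *mt-Nd2*, *mt-Rnr2* to *mt-Nd3* and *mt-Co1* to *mt-Nd3*, lower in *Prdm1*-CKO mice. *mt-Rnr1*, *mt-Nd5* and *mt-Nd6* took part in none.

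**Figure D4:**
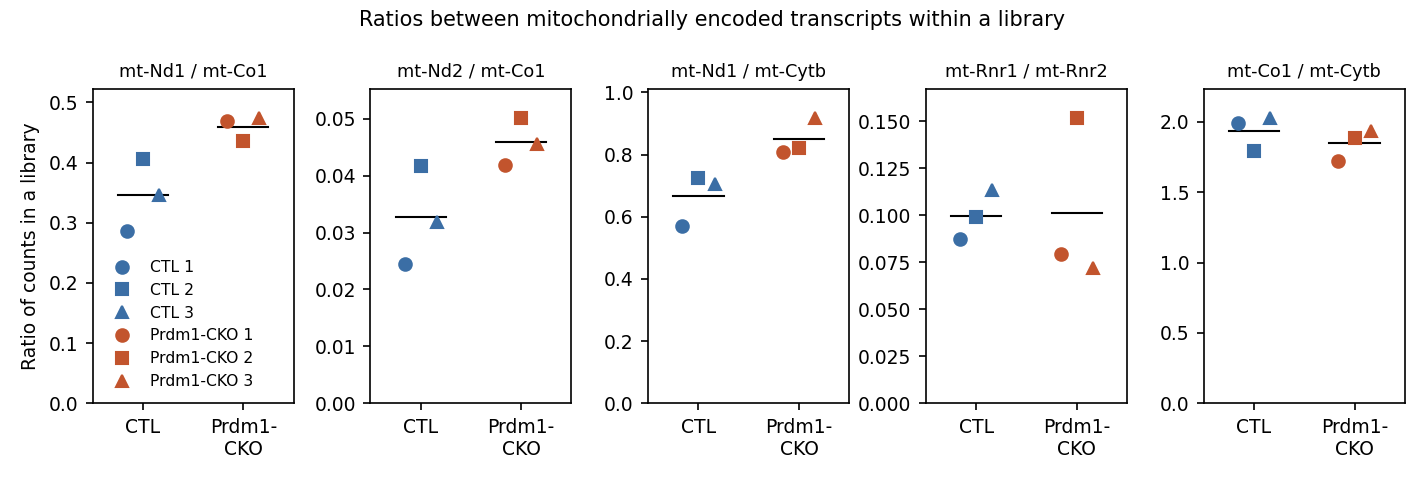
Ratios of counts between mitochondrial transcripts within each library, with 1 point per mouse and a line at the group mean (n = 3). The groups do not overlap for mt-Nd1 or mt-Nd2 over mt-Co1 or for mt-Nd1 over mt-Cytb, and they overlap for mt-Rnr1 over mt-Rnr2 and for mt-Co1 over mt-Cytb.

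By respiratory complex, complex IV RNA, nearly all of it *mt-Co1*, made up 49.7%, 41.7% and 45.3% of the mitochondrial protein-coding counts in CTL mice and 41.5%, 42.0% and 41.4% in *Prdm1*-CKO mice. Complex I RNA made up 25.3%, 35.0% and 32.3% in CTL mice and 34.5%, 35.8% and 37.2% in *Prdm1*-CKO mice. Complex III RNA, which is *mt-Cytb*, varied least, with 24.1%, 22.3% and 21.4% in *Prdm1*-CKO mice and 23.3% and 22.3% in CTL 2 and 3, and CTL 1 was the highest. The groups overlapped in each, and complex V RNA was at or near 0 counts.

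The nuclear genes that encode the other subunits of these complexes had lower sums in CTL 2 than in any other mouse, while the mitochondrial partners in complexes I, III and IV had their highest sums there. Summed over the nuclear subunits, complex I was at 2834, 2371 and 3121 CPM in CTL mice and 3095, 3349 and 2868 CPM in *Prdm1*-CKO mice. The mitochondrial subunits of complex I summed to 2541, 6991 and 5065 CPM in CTL mice and 2424, 3927 and 5087 CPM in *Prdm1*-CKO mice. The groups overlapped in both sums. Complex IV was at 1378, 1089 and 1656 CPM in CTL mice and 1552, 1867 and 1416 CPM in *Prdm1*-CKO mice for its nuclear subunits. Its mitochondrial subunits, 4994, 8347 and 7106 CPM in CTL mice and 2918, 4611 and 5660 CPM in *Prdm1*-CKO mice, overlapped as well. Complex III was at 1404, 1245 and 1436 CPM in CTL mice and 1539, 1507 and 1438 CPM in *Prdm1*-CKO mice for its nuclear subunits. These sums did not overlap, with CTL 3 and *Prdm1*-CKO 3 close together, and were given no test.

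Of 75 nuclear subunit genes listed for complexes I, III, IV and V, 74 were tested and 0 passed at an adjusted p under 0.05 in edgeR or in DESeq2, where 0% and 0.0346% of all genes did. At an unadjusted p under 0.05 in edgeR, with 2.35% of all genes tested, there was 1, *Uqcr11*, a small subunit of complex III, with a log2 fold change of 0.57 (standard error 0.23) and an adjusted p of 0.996 in edgeR. It was chosen for naming after its value was seen. Their log2 fold changes had a median of 0.19 against 0.01 over all genes tested, from -0.15 for *Ndufs1* to 0.70 for *Atp5l*, and were below 0 in 3 of 74 genes, against 48.9% of all genes tested. The 3 *Prdm1*-CKO mice were all above the CTL mice in 6 of the 74 genes and all below in 0, where all genes tested gave 4.56% and 3.86%.

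The nuclear genes for the machinery of mitochondrial gene expression were near the median of all genes. Of 53 tested, 0 passed in edgeR or in DESeq2, 0 had an unadjusted p under 0.05 in edgeR and 25 were below 0, and the median log2 fold change was 0.01. Over all genes tested, 0% passed in edgeR and 0.0346% in DESeq2, 2.35% had an unadjusted p under 0.05 in edgeR and 48.9% were below 0. The 16 genes for transcription and upkeep of mitochondrial DNA had a median of -0.11, with 12 below 0, from *Mterf1b* at -0.57 to *Polg*, the mitochondrial DNA polymerase, at 0.44. The 19 genes for RNA processing and decay had a median of 0.01, from *Fastkd3* at -0.55 to *Fastkd2* at 0.55. The 18 genes for translation had a median of 0.14, with 4 below 0, from *Mtif2*, an initiation factor, at -0.36 to *Mtrf1*, a release factor, at 0.75.

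**Figure D5:**
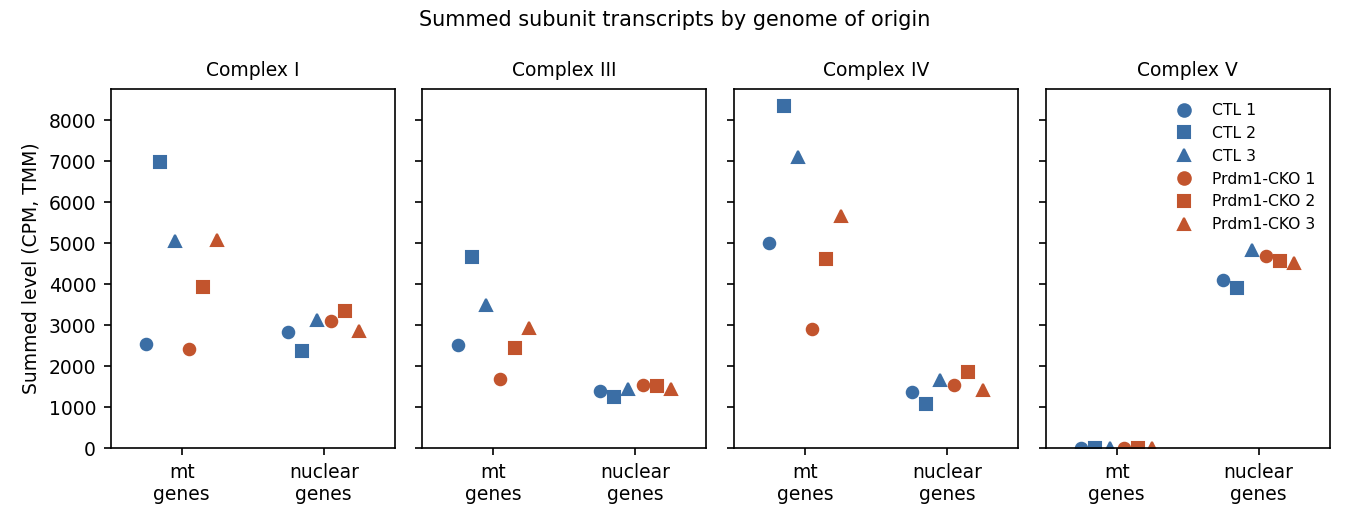
Summed level in CPM with TMM scaling of the mitochondrially encoded and of the nuclear-encoded subunit transcripts of complexes I, III, IV and V, with 1 point per mouse. The sums are not per length, so the columns are for comparing mice and not genomes. CTL 2 is the highest mouse for the mitochondrial sums of complexes I, III and IV and the lowest for all 4 nuclear sums, and the mitochondrial sums of complex V are at or near 0.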

How the data were processed

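The authors sorted splenic Tfh cells, made Smart-seq2 libraries, sequenced read pairs of 25 bases and counted reads per gene with featureCounts 1.4.6 on mm10 with GENCODE mouse release 9 (Ensembl 84). The submitters' processing notes name STAR 2.4.2a, DESeq2 and GRCm38.p6. The authors deposited raw counts per gene, 1 table per mouse, without normalization. Strand setting, handling of multiply aligned reads and whether pairs were counted as fragments are not given in the sources used here. Of 53379 identifiers, 53274 matched GENCODE M21. No libraries were identical.

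Counts were analysed with edgeR 4.0.16 in R 4.3.3 (TMM, filterByExpr, quasi-likelihood F test, no covariate, Benjamini-Hochberg over 14555 genes, two-sided), with DESeq2 1.42.0 as an alternative, after the steps were tested on simulated data. Shares and ratios were compared by exact two-sided permutation tests over mice (SciPy 1.17.1), adjusted over 8 tests. P values rest on 3 mice per group. In edgeR the spread between mice was estimated with the help of all genes tested, and the exact permutation tests cannot go below 0.1. Total counts, 7147601 to 16973392 per library, set the precision. Alternatives were other size factors, no filter, a stricter filter, scaling without the mitochondrial genes, for shares a total without the gene with the most counts or of filtered genes and differences of log2 shares, the replicate number as a block, and each mouse left out. Restriction to genes with under 25% shared words was chosen after seeing the data. Named were all protein-coding and rRNA members, tested tRNA members with fold changes and the others with counts, and from other lists the genes with the lowest and highest fold change. The members and lists were chosen with earlier results of these data known.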

Additional observations from a re-analysis of the deposited data

How the results depend on the processing

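Of 153 alternative values other than those with a mouse left out, 147 were labelled as the same as the main value. For fold changes, shares and ratios this meant the same direction and the same side of a p of 0.05. Shares and ratios could not change side, since their exact permutation tests give no p below 0.1, so only their direction was examined. Numbers of genes and the median log2 fold change had only to stay within a set margin of the main value. The log2 fold change changed sign for *mt-Tq* (-0.03, with the replicate number as a block 0.026), *mt-Tp* (0.02, with the block -0.048) and *mt-Ts1* (-0.01, without a filter 0.015), and the cause was not tested. The number of mitochondrially encoded genes at an unadjusted p under 0.05 in edgeR was 2, and it was 1 with DESeq2's size factors, 1 with scaling without the mitochondrial genes and 4 with the replicate block. No setting brought any of them to an adjusted p under 0.05, the smallest being 0.669. Whether the replicate numbers pair the mice cannot be decided from 3 mice per group. Deviations of same-numbered mice correlated at 0.158, 0.028 and 0.016, and those of mice with other numbers at -0.131 to 0.083. CTL 1 and CTL 2 correlated best with the *Prdm1*-CKO mouse of their own number, and CTL 3 with *Prdm1*-CKO 2. Restriction to genes with under 25% shared words, chosen after seeing the data, gave a difference of -0.797 percentage points in the share of all mitochondrially encoded genes, and it moved that of the protein-coding genes from -0.431 to -0.186, since it leaves out *mt-Co1* and *mt-Nd4* (exact permutation p = 0.4 for both). The log2 ratio of the complex I genes so restricted to *mt-Co1* differed by 0.37 (exact permutation p = 0.1, the smallest possible, against 0.2). With the block 0 genes were called and the median log2 fold change was -0.22.

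With each mouse left out in turn, the difference in share ranged from -1.83 to -0.290 percentage points for all mitochondrially encoded genes, from -0.660 to -0.197 for protein-coding genes, from -1.17 to -0.0930 for rRNA genes and from -0.000793 to 0.000308 for tRNA genes, with the sign changed for tRNA genes without CTL 2 and without *Prdm1*-CKO 1. The log2 rRNA to protein-coding ratio ranged from 0.06 to 0.22, that of complex I to IV from 0.15 to 0.51, and that of *mt-Rnr2* to *mt-Rnr1* from -0.15 to 0.39, with the sign changed without CTL 3, *Prdm1*-CKO 1 or *Prdm1*-CKO 3. The median log2 fold change ranged from -0.60 (without CTL 1) to -0.04 (without *Prdm1*-CKO 1), and the number of genes at an unadjusted p under 0.05 from 0 to 4, with 4 without CTL 1 and 0 without CTL 2, CTL 3, *Prdm1*-CKO 1 or *Prdm1*-CKO 2. The sign changed in 11 genes, which ranged from -0.54 to 0.038 for *mt-Nd1*, -0.50 to 0.21 for *mt-Nd2*, -0.30 to 0.18 for *mt-Nd3*, -0.46 to 0.21 for *mt-Nd6*, -0.12 to 0.19 for *mt-Ta*, -0.36 to 0.070 for *mt-Tc*, -0.86 to 0.36 for *mt-Te*, -0.30 to 0.30 for *mt-Tp*, -0.30 to 0.47 for *mt-Tq*, -0.32 to 0.29 for *mt-Ts1* and -0.44 to 0.089 for *mt-Ty*. The sign was kept by *mt-Co1* (-0.85 to -0.40), *mt-Cytb* (-0.81 to -0.37), *mt-Nd4* (-0.75 to -0.09), *mt-Nd5* (-0.93 to -0.14), *mt-Rnr2* (-0.68 to -0.12), *mt-Rnr1* (-0.90 to -0.03), *mt-Tl1* (-0.88 to -0.28) and *mt-Tm* (-2.32 to -0.63). The tRNA genes other than *mt-Ts1* had few counts, and how small a difference they could show was not tested. The copied protein-coding genes other than *mt-Nd3* had few counts as well, and the part of depth and of read assignment in that was not tested.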
